A study of Arabidopsis thaliana with 2 samples.

Results

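Iron-sulfur clusters are small cofactors of iron and sulfide that carry electrons or sit at the active sites of enzymes. Chloroplasts build their own with the SUF machinery: a cysteine desulfurase releases sulfur, a scaffold complex joins it to iron, and carrier proteins hand the finished cluster to its target. Photosystem I, the cytochrome b6f complex, ferredoxins, and enzymes of nitrogen and sulfur assimilation all depend on this supply.

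The 9 nuclear genes described here encode the core of that machinery in Arabidopsis thaliana, and were taken by gene identifier from a table of 33565 genes. They are NFS2 (AT1G08490) and SUFE1 (AT4G26500) for sulfur supply, SUFB (AT4G04770), SUFC (AT3G10670) and SUFD (AT1G32500) for the scaffold, and NFU1 (AT4G01940), NFU2 (AT5G49940), NFU3 (AT4G25910) and HCF101 (AT3G24430) as carriers. The table lists some under older symbols, CPNIFS for NFS2, CPSUFE for SUFE1, ABC1 for SUFB, NAP7 for SUFC and NAP6 for SUFD. All 9 had a mean FPKM of at least 1 over both libraries, as did 18788 genes of the table. FPKM corrects fragment counts for transcript length and library size, so levels of different genes can be compared.

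Shoots of wild-type Col-0 seedlings were set against shoots of wn1, a mutant in the Col-0 background labelled as whitening. Both were sampled at an age of 7 days after growth on solid half-strength medium under 16 h light and 8 h dark at 22 °C, with no treatment, and the labels give shoot and cotyledon as the tissue. Which locus wn1 affects and how many plants were pooled is not stated in the sources used here. Each genotype is a single library, so nothing below has a replicate check, no test between genotypes was possible, and every value describes these 2 libraries only.

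The low values of the table step in whole fragments, which gave wn1 a depth 1.22 times that of wild type, with estimated totals of 12700000 fragments in wild type and 15700000 in wn1. From these totals and transcript lengths, each member was estimated to rest on 286 to 1958 fragments in wild type and 311 to 3460 in wn1. Intervals given below are 95% exact intervals on those estimated fragments and cover counting error only, not variation between plants. All 5 shoot markers were present and all were lower in wn1, with a median log2 difference of -0.54. The highest of them, RBCS1A, a small subunit gene of Rubisco, had 19784 FPKM in wild type versus 13647 in wn1. The lowest, GLK1, an activator of photosynthesis genes, had 72.8 and 11.3 and was the 1 shoot marker at least 2-fold lower. All 6 root markers were also present in the wild-type library, where they summed to 112 FPKM against 73.6 in wn1, and 5 of the 6 in wn1 were above 2 FPKM, the exception being IRT1 at 0.102. The 4 seed markers summed to 166 FPKM in wild type versus 60.7 in wn1, and no marker of any kind was at 0. At least 2-fold lower were 1 shoot marker, 1 root marker and 3 seed markers, where the share of all genes was 3.65%. All 3 marker lists were lower in wn1, where 52.9% of all genes lay above 0. Their part in the results below was not tested. In bulk shoots, fewer cells of a type and less RNA per cell cannot be told apart.

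Core iron-sulfur assembly transcripts were present at close to wild-type levels in wn1 as a group, but not gene by gene. SUFB and NFU3 were 1.76 and 1.78 times as abundant in the wn1 library, HCF101 and SUFD were at 0.729 and 0.761 of their wild-type level, and the other 5 had ratios from 0.878 to 1.11. The median log2 difference of the 9 genes, wn1 minus wild type on log2(FPKM + 1), was -0.04 against 0.03 over all 18788 genes. Of the 9, 4 lay above 0 and 5 below, where 52.9% of all genes lay above. No member was at least 2-fold higher or at least 2-fold lower in wn1, and over all genes these shares were 3.67% and 3.65%, together 7.32%. At 1.5-fold, SUFB and NFU3 were higher, 2 of 9 genes where the share of all genes was 11.3%, and none was lower, where the share was 9.94%. With 9 genes, a count of 2 is not read as a result about the group. Directions here and below are those of FPKM as deposited. Dividing each column by its own sum lowered nearly the whole transcriptome, its median by 0.89, and turned SUFB and NFU3 to -0.20 and -0.18, which still lay 0.66 and 0.68 above that median.

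**Figure D1:**
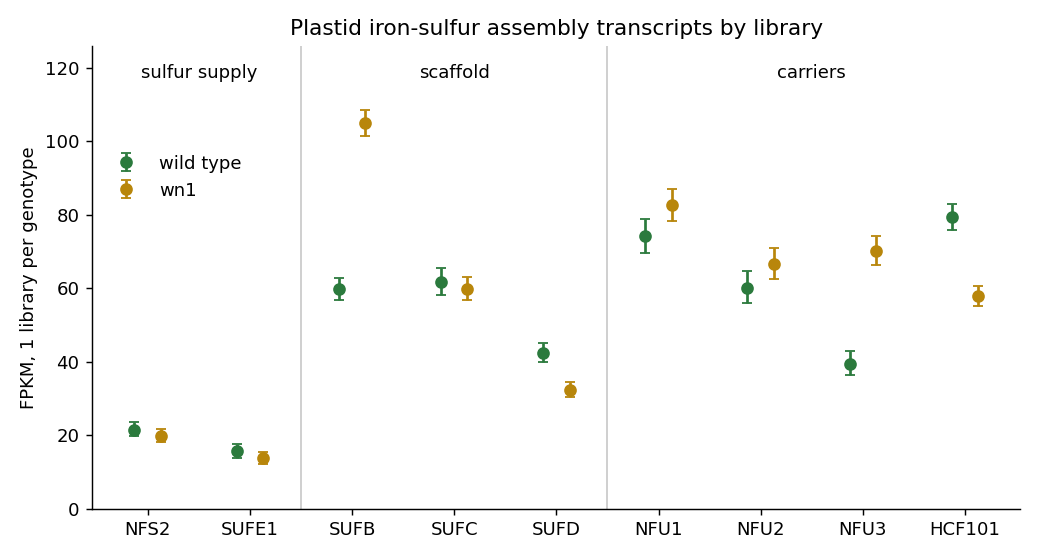
FPKM (vertical axis, linear from 0) of the 9 plastid iron-sulfur assembly genes, grouped by role, in the wild-type library (green) and the wn1 library (ochre). Bars are 95% exact counting intervals from estimated fragments, not replicate error; the intervals stand apart between libraries for SUFB, SUFD, NFU3 and HCF101 and overlap for the other 5.

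The sulfur-supply genes had the lowest levels of the 9 in both libraries and differed little between them. NFS2, the cysteine desulfurase that takes sulfur from cysteine, had 21.6 FPKM in wild type versus 19.9 in wn1. Its ratio of wn1 to wild type was 0.922 with a counting interval of 0.816 to 1.04, and 78.3% of all genes lay at least as far from 0. The interval holds 1, so no difference was detectable at this depth.

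SUFE1, which binds NFS2 and raises its desulfurase activity, had 15.6 FPKM in wild type versus 13.7 in wn1. The ratio was 0.878 with an interval of 0.745 to 1.03, which again holds 1. SUFE1 stood at 0.725 of the NFS2 level in wild type and at 0.689 in wn1, so this pair kept nearly the same proportion. In the reference annotation every 50-base stretch of the SUFE1 transcript also lies, on the opposite strand, in transcripts of the uridine kinase gene UKL4 (AT4G26510), which had 9.47 FPKM in wild type versus 15.6 in wn1. The strand setting is unknown here, so SUFE1 and UKL4 reads may not be fully separated. The NFS2 transcript shared no such stretch with another gene.

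The scaffold genes parted from each other. SUFB, the subunit on which the cluster is thought to assemble, had 59.8 FPKM in wild type versus 104.9 in wn1. Its ratio was 1.76 with an interval of 1.65 to 1.86 and its log2 difference 0.80. Of all genes, 12.1% lay at least as far from 0 in either direction, and 6.3% had a higher difference. SUFC, the ATPase of the complex, had 61.8 FPKM in wild type versus 59.9 in wn1, a ratio of 0.969 with an interval of 0.896 to 1.05. SUFC was thus level between the libraries within counting error.

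SUFD, a relative of SUFB that is needed in bacteria for iron to enter the complex, had 42.4 FPKM in wild type versus 32.3 in wn1. Its ratio was 0.761 with an interval of 0.696 to 0.831, below 1, and 37.1% of all genes lay at least as far from 0. Within the wild-type library SUFB stood at 0.968 of SUFC and at 1.41 times SUFD. Within the wn1 library the same ratios were 1.75 and 3.25, so SUFB relative to SUFD was 2.31 times as high in wn1. These ratios compare genes inside a library and do not depend on how the columns are scaled. SUFB shared 1.71% of its 50-base stretches with another gene, the overlapping AT4G04760 on the opposite strand, which was at 0.220 FPKM in wild type versus 0.135 in wn1, while SUFC and SUFD shared none.

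The carriers included both the member with the highest ratio and the one with the lowest. NFU3, which together with NFU2 is needed for normal photosystem I, had 39.5 FPKM in wild type versus 70.2 in wn1. Its ratio was 1.78 with an interval of 1.61 to 1.97 and its log2 difference 0.81. Of all genes, 11.7% lay at least as far from 0 in either direction, and 6.06% had a higher difference. NFU2, which receives clusters from the scaffold and is likewise needed for photosystem I, had 60.2 FPKM in wild type versus 66.7 in wn1. The ratio of 1.11 had an interval of 1.01 to 1.22, only just above 1, and its row sums 2 transcripts. NFU3 stood at 0.656 of NFU2 in wild type and at 1.05 times NFU2 in wn1.

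NFU1, the third plastid NFU protein, had 74.2 FPKM in wild type versus 82.6 in wn1, a ratio of 1.11 with an interval of 1.03 to 1.21. NFU1 and NFU2 kept the same proportion, NFU1 being 1.23 times NFU2 in wild type and 1.24 times in wn1. Of the NFU1 transcript, 20.7% of 50-base stretches also lie in AT4G01935 on the opposite strand, a gene at 7.45 FPKM in wild type versus 12.8 in wn1. NFU2 and NFU3 shared none with another gene, nor with each other.

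HCF101, a P-loop carrier required to build photosystem I, whose clusters are all of the 4Fe-4S kind, had 79.5 FPKM in wild type versus 57.9 in wn1. Its ratio was 0.729 with an interval of 0.683 to 0.777 and its log2 difference -0.45, and 30.9% of all genes lay at least as far from 0. HCF101 differed in the opposite direction to NFU3, which stood at 0.497 of HCF101 in wild type and at 1.21 times HCF101 in wn1. HCF101 shared no 50-base stretch with another gene.

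**Figure D2:**
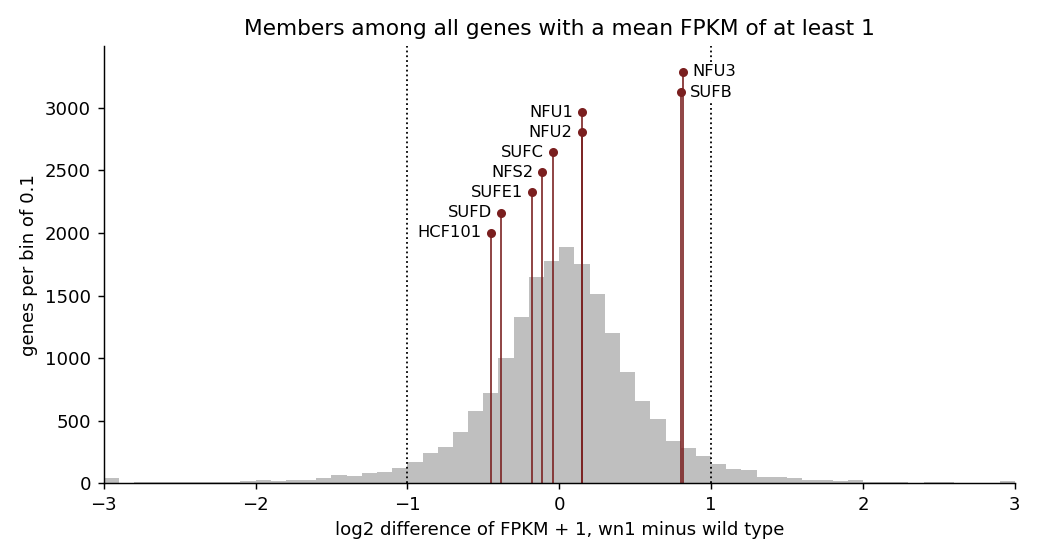
Log2 differences of FPKM + 1, wn1 minus wild type (horizontal axis), for the 18788 genes whose mean FPKM reached 1 (grey, genes per bin of 0.1) and for the 9 members (red lines). The outermost bins also hold 33 genes below -3 and 16 above 3, dotted lines mark 2-fold, and SUFB and NFU3 lie right of the bulk of genes but inside 2-fold.

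The order of levels among the 9 genes changed between the libraries. In wild type the order ran HCF101, NFU1, SUFC, NFU2, SUFB, SUFD, NFU3, NFS2 and SUFE1. Counting intervals of HCF101 and NFU1 overlapped there, as did those of SUFC with NFU2, NFU2 with SUFB, and SUFD with NFU3. In wn1 the order ran SUFB, NFU1, NFU3, NFU2, SUFC, HCF101, SUFD, NFS2 and SUFE1, and the overlapping neighbours were NFU3 with NFU2, NFU2 with SUFC, and SUFC with HCF101. SUFB thus passed from the fifth place to the first and HCF101 from the first to the sixth, while NFS2 and SUFE1 kept the last places. Measured against all genes, SUFE1 lay above 59.6% of them in wild type and HCF101 above 90.3%, and in wn1 the span ran from 55.3% for SUFE1 to 92.5% for SUFB.

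The summed level of the 9 genes was 454 FPKM in wild type versus 508 in wn1. SUFB made up 13.2% of that sum in wild type and 20.7% in wn1, and NFU3 8.69% and 13.8%. HCF101 took 17.5% and 11.4%, and SUFD 9.34% and 6.36%. The shares of NFU1, at 16.3% in both, and of NFU2, at 13.2% and 13.1%, hardly differed. By role, sulfur supply summed to 37.2 and 33.6 FPKM, the scaffold to 164 and 197, and the carriers to 253 and 277. The scaffold sum was higher in wn1 through SUFB alone, since SUFC and SUFD were both at or below wild type.

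**Figure D3:**
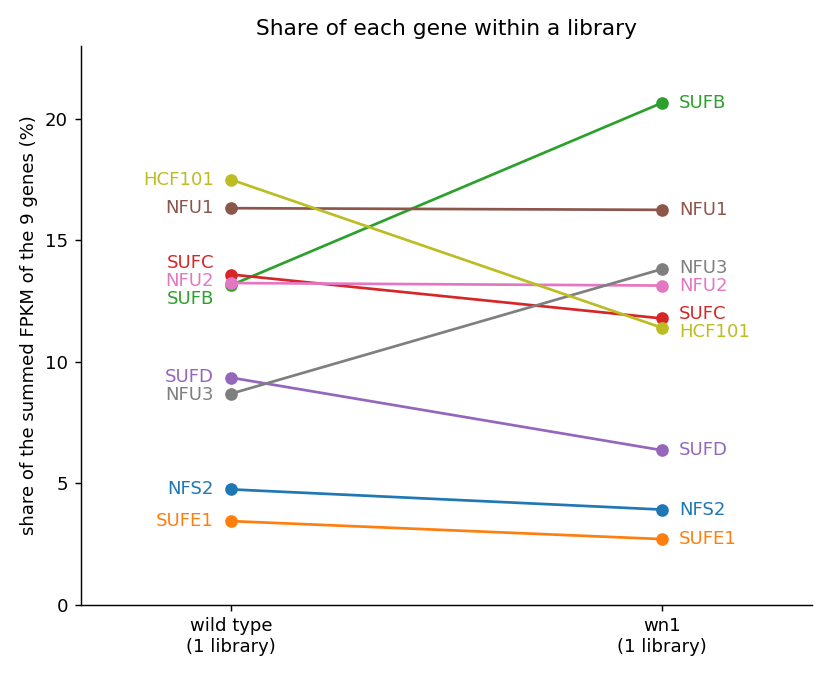
Share of each gene in the summed FPKM of the 9 genes (vertical axis, percent) in the wild-type and the wn1 library, which no scaling of a whole library changes. The lines of SUFB and NFU3 run up to 20.7% and 13.8%, that of HCF101 runs down to 11.4%, and those of NFU1 and NFU2 are flat.

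Other plastid assembly factors spread more widely than the core in these 2 libraries, a difference that was not tested. Of 8 listed, 2 were at least 2-fold higher and none at least 2-fold lower, where the shares of all genes were 3.67% and 3.65%. The median log2 difference was -0.04, with 4 members on each side of 0. SUFE2 (AT1G67810), a second activator of NFS2 known mainly from pollen, had 6.16 FPKM in wild type versus 15.1 in wn1, with a log2 difference of 1.17. SUFE3 (AT5G50210), in which a SufE domain is joined to quinolinate synthase, an enzyme of NAD synthesis that itself carries a 4Fe-4S cluster, had 12.5 and 6.98, a difference of -0.76. So among the transcripts of the 3 SufE genes, SUFE1 was close to wild type, SUFE2 higher and SUFE3 lower in wn1. No counting interval was estimated for SUFE2 and SUFE3, and SUFE1 reads may not be fully separated from those of UKL4.

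BOLA1 (AT1G55805), a plastid partner of the monothiol glutaredoxins, had 12.4 FPKM in wild type versus 27.0 in wn1, with a log2 difference of 1.06. GRXS14 (AT3G54900), a glutaredoxin that can hold and transfer a 2Fe-2S cluster, was the most abundant factor of the list at 262 and 201 FPKM, a difference of -0.38. Its level exceeded that of every core gene in both libraries.

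The assembly systems of other compartments had no member past 2-fold, where the share of all genes was 7.32%. With 18 and 9 measured genes, a count of 0 is near that share and is not read as a result about them. Mitochondria use a separate ISC machinery, of which 18 of 21 listed genes were measured and all 18 lay within 2-fold. Their median was -0.18, with 7 above 0 and 11 below, a split that was not tested. Over all genes, 52.9% lay above 0 and the median was 0.03. The scaffold ISU1 (AT4G22220) had 118 FPKM in wild type versus 104.1 in wn1, and the mitochondrial HSP70 chaperone HSCA2 (AT5G09590) differed most at 42.0 and 26.9. ISD11 (AT5G61220), the partner of the mitochondrial desulfurase, had 17.1 and 11.6 FPKM, and MFDR (AT4G32360), the reductase of mitochondrial ferredoxin, had 3.42 and 5.43. The 3 that were not measured, ISU2, ISU3 and ISCA3, were listed at 0 in both.

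All 9 genes of the cytosolic CIA machinery also lay within 2-fold, with a median of 0.09 and a range from -0.23 to 0.28. Its scaffold NBP35 (AT5G50960) had 22.2 FPKM in wild type versus 18.8 in wn1, its electron carrier DRE2 (AT5G18400) 10.4 and 12.8, and TAH18 (AT3G02280), which feeds electrons to DRE2, 4.83 and 5.94. BOLA2 (AT5G09830), highest of the list in its mean over both libraries though first in neither, had 20.6 and 22.3 FPKM. The plastid core ranged from -0.45 to 0.81, wider at its upper end than either system, a difference that was not tested.

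More genes for plastid proteins that receive the clusters lay below 0 than above, which was not tested. Of 12 measured genes for 2Fe-2S proteins, 11 lay within 2-fold, 3 above 0 and 9 below, with a median of -0.19. Over all genes, 7.32% were past 2-fold, 52.9% lay above 0 and the median was 0.03. PETC (AT4G03280), the Rieske protein of the cytochrome b6f complex and also a shoot marker above, had 1032 FPKM in wild type versus 726 in wn1. FD3 (AT2G27510), a ferredoxin of non-green tissue, had 92.9 and 64.8. FD2 (AT1G60950), the main leaf ferredoxin, was the most abundant at 2150.2 and 2320.1 FPKM. NEET (AT5G51720), a 2Fe-2S protein studied in iron homeostasis, was the one past 2-fold, at 31.8 FPKM in wild type versus 67.4 in wn1.

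Of 17 measured nuclear genes for plastid 4Fe-4S or 3Fe-4S proteins, 13 lay within 2-fold. At least 2-fold lower were 3, and at least 2-fold higher 1, where the shares of all genes were 3.65% and 3.67%. The list median was -0.22, against 0.03 over all genes. The 3 lower ones were the adenylylsulfate reductases of sulfate assimilation, a small family of related genes among which the division of reads is uncertain. APR1 (AT4G04610) had 116 FPKM in wild type versus 9.10 in wn1, APR3 (AT4G21990) 102.7 and 17.8, and APR2 (AT1G62180) 194 and 68.8. The 1 higher gene was ASE2 (AT4G34740), the amidophosphoribosyltransferase that begins purine synthesis, at 7.22 and 22.0 FPKM, named after its value was seen. HDR (AT4G34350), the last enzyme of the plastid isoprenoid pathway and the most abundant of the list, was level at 559 and 571.

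The 5 plastid genes for 4Fe-4S subunits lay far apart, with a median of -0.01, and how well the libraries captured plastid RNA is unknown here. The photosystem I core subunit PSAB (ATCG00340) had 10.2 FPKM in wild type versus 6.01 in wn1. PSAC (ATCG01060), which binds the terminal clusters of photosystem I, had 1.44 and 11.7 FPKM. Its log2 difference of 2.38 thus rests on a low wild-type value. NDHK (ATCG00430) of the NDH complex had 158 and 11.6 FPKM, a difference of -3.66. Of the 4 genes for iron supply to plastids, 1 was at least 2-fold higher, where the share of all genes was 3.67%. That gene was the chloroplast ferric reductase FRO7 (AT5G49740), at 11.6 FPKM in wild type versus 30.2 in wn1. NAP14 (AT5G14100), an ABC protein of plastids linked to iron, had 3.32 and 5.80, and the envelope iron permease PIC1 (AT2G15290) had 53.5 and 46.4.

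**Figure D4:**
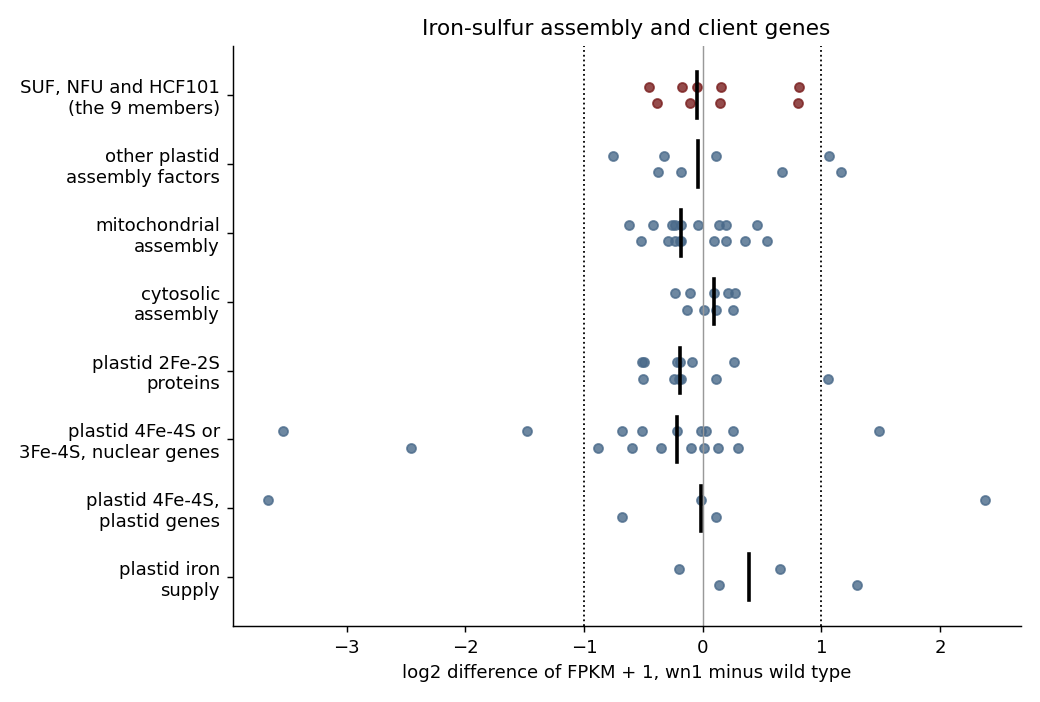
Log2 differences of FPKM + 1, wn1 minus wild type (horizontal axis), for measured genes of 8 lists (rows); each point is a gene, thick bars are list medians and dotted lines mark 2-fold. The 9 core genes and both non-plastid assembly systems stay inside 2-fold, where 7.32% of all genes lie outside it. The widest spread is among plastid 4Fe-4S client genes, which include PSAC at a low 1.44 FPKM in wild type.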

How the data were processed

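The authors deposited 1 table of gene-level FPKM. The submitters' processing notes name Bowtie and TAIR10; counter, versions, filters and strand setting are not given here. WT and WN columns were matched to samples by name, and 2 columns of per-sample values naming other material were not used. Differences are log2((wn1 + 1)/(wild type + 1)) for genes whose mean FPKM reached 1. With 1 library per genotype, called means past 2-fold and no test was made. Members, 10 comparison lists (92 genes, all found), rules and alternatives were chosen with earlier results of these data known. The rule allowed naming, per list, the most abundant gene and the 3 furthest from 0.

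For relative depth, 994 genes with 1 transcript and both values under 0.3 FPKM were used. Their wn1-to-wild-type ratios, divided by 0.82, matched a quotient of whole numbers (6 at most) to 0.5% in 84.8% of cases, and in 1.41% when the step was 3% larger. Totals were estimated from transcripts of at least 1000 bases with values under 0.15 FPKM, and the fragments of each member from its transcript length. Levels have exact Poisson intervals and ratios exact binomial (Clopper-Pearson) ones. RefSeq TAIR10.1, whose annotation differs from that of the table, served for lengths, overlaps and shared 50-base stretches, so no coordinates are printed. All 9 members matched it. The steps were tested on simulated data with known transcript lengths. That test cannot check the estimated totals against errors in the RefSeq lengths, and the intervals rest on those totals. Python 3.11.15, pandas 2.3.3, numpy 2.4.6 and scipy 1.17.1 were used.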

Additional observations from a re-analysis of the deposited data

How the results depend on the processing

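Using 0.1 as pseudocount, requiring a mean of 5 FPKM, dropping the filter, centring on the overall median, and scaling to column sums without organelle genes each left 4 of the 9 members above 0 and none past 2-fold. The median of the members then ranged from -0.07 to -0.04. Scaling to the column sum of all rows moved the overall median by -0.89. The single plastid row ATCG00010 held 54.1% of all FPKM in wn1 but was at 0 FPKM in wild type, so this scaling largely follows 1 row. Under this scaling the members' median was -1.04, 0 members lay above 0 and 5 were at least 2-fold lower. Over all genes 94 were then at least 2-fold higher and 7026 lower, against 690 and 685 as deposited. SUFB and NFU3 turned to -0.20 and -0.18, yet lay 0.66 and 0.68 above the median of all genes, against 0.77 and 0.79 as deposited. At 1.5-fold, 2 members were higher, and 2114 genes higher and 1867 lower. Requiring a mean of 5 FPKM moved the list medians of plastid-encoded 4Fe-4S clients from -0.01 to -0.29 and of plastid iron supply from 0.39 to 0.13, and dropping the filter moved that of the mitochondrial list from -0.18 to -0.04. No paired analysis was possible because there was 1 library per genotype; for the same reason no replicate could be left out. Counting intervals of the ratio held 1 for NFS2, SUFE1 and SUFC, so depth limits those values. The missing replicates limit the values of all 9 members.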
